A study of Mus musculus with 9 samples.

Results

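Satellite cells, the stem cells of skeletal muscle, were compared between the state in which they leave the tissue and the state in which they divide in culture. The comparison covers every gene with a scaled read count of 10 or more in at least 3 of the 6 libraries of these stages, which holds for 16434 of the 45706 genes in the deposited table; 30370 genes were above 0 in at least 1 of the 6. Cells came from muscles of wild-type C57Bl6 mice that were 12 to 20 weeks old. Freshly isolated cells were not cultured. Proliferating cells were kept for at least 3 days in culture, where the medium held fetal calf serum at 20% and human FGF-2 at 2.5 ng/ml. Each stage had 3 independent samples from different animals, so the spread includes differences between mice and between isolations, and the medium, the time in culture and the plating cannot be told apart. A further 3 libraries of myotubes, taken after 6 days in 2% horse serum, entered the model for the spread of each gene and nothing else.

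As background, a satellite cell lies between the muscle fibre and its basement membrane and rests outside the cell cycle, holding the transcription factor Pax7. Injury or isolation wakes it: stress and growth-factor signals turn on short-lived immediate early genes within minutes to hours, and the cell later copies its DNA, divides as a myoblast and can go on to fuse into muscle. Enzymatic dissociation of muscle is itself known to start the early part of that programme, so a freshly isolated cell is not the same as a cell in the undisturbed tissue. In bulk RNA, fewer cells of a type and less RNA per cell cannot be told apart.

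Libraries grouped by stage. Across genes, log2 values correlated at a Pearson r of 0.924 to 0.979 among the freshly isolated libraries, 0.983 to 0.988 among the proliferating ones and 0.656 to 0.695 between the stages, a description over genes that are not independent. The scaled values of a library summed to 20111379 to 26209153 in freshly isolated cells and to 17751754 to 18151883 in proliferating cells. A step size fitted to the spacing of low values put 1 read at an estimated 2.179 units in freshly isolated replicate 1. The estimates were 1.053 and 1.043 in replicates 2 and 3 of that stage and 0.749 to 0.871 in proliferating cells. The fits were loose, with correlations of 0.853, 0.51 and 0.633 in freshly isolated replicates 1, 2 and 3 and 0.622 to 0.791 in proliferating cells. By these estimates low values rest on fewer reads in freshly isolated replicate 1. Freshly isolated replicate 1 stood apart: it was the highest of its stage for 40.6% of the genes and the lowest for 41.7%, and the single gene model Gm26917 held 22.2% of its scaled reads, while it held 10.6% and 11.2% of replicates 2 and 3 and 8.53% to 11% of the proliferating libraries. A fit without freshly isolated replicate 1 called 6591 genes higher and 6462 lower, with 0 calls opposite to those of the full fit. Values from that fit are given below for some genes only.

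Values are scaled read counts and are listed for replicates 1, 2 and 3 in that order. Changes are log2 differences, proliferating minus freshly isolated, on the log2(value + 1) scale with their standard error (SE) and the Benjamini-Hochberg adjusted p of limma over all 16434 genes; for a gene near 0 in one stage this scale understates the change and depends on the added 1, so most such genes are given by their values alone. Pax7 (chromosome 4, 139737062 to 139833528, GRCm38) had 15700, 11694 and 12892 in freshly isolated cells and 3330, 2668 and 2556 in proliferating cells, and fell by 2.23 (SE 0.16, adjusted p = 5.87e-07). It was lower in every proliferating library yet remained among well-detected genes. The other markers nearly switched. Calcr, the calcitonin receptor of quiescent satellite cells (chromosome 6, 3685680 to 3764714), had 1935, 2711 and 2558 and then 5, 3 and 3. Fosb, an AP-1 subunit (chromosome 7, 19302696 to 19310051), had 92566, 68836 and 65159 and then 18, 9 and 9. Both were thus close to 0 in all proliferating libraries. Mki67, the proliferation antigen Ki-67 (chromosome 7, 135689784 to 135716361), had 471, 66 and 163 and then 23855, 25457 and 22495, and rose by 7.11 (SE 0.54, adjusted p = 1.05e-06), or by 7.83 without freshly isolated replicate 1 and 6.42 without freshly isolated replicate 2. Hmga2, an architectural chromatin factor (chromosome 10, 120361275 to 120476469), had 2, 0 and 0 and then 5033, 2380 and 2813. None of the 5 markers overlapped between the stages. Of all tested genes 38.5% were higher without overlap and 37.8% lower without overlap, so this does not set the markers apart.

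Most genes differed. At an adjusted p below 0.05, 12401 genes (75.5%) were called: 6289 genes (38.3%) were higher in proliferating cells and 6112 (37.2%) were lower, and these percentages are the background against which each group of genes below should be read. Libraries of the stages did not overlap for 6332 genes that were higher (38.5%) and 6214 that were lower (37.8%). Changes beyond 2-fold, by limma's treat test, numbered 6554 (39.9%), with 3065 rises (18.7%) and 3489 falls (21.2%). The falls reached further: 1046 called genes were at least 16-fold lower and 584 at least 16-fold higher. The interval of the change lay within 2-fold for 3529 genes (21.5%), and 2134 genes were not called although their interval reached past 2-fold. Among well-expressed genes with an interval within 2-fold was Kdm1a, a histone demethylase, at 2874, 2952 and 2770 against 2723, 2914 and 2885. Glud1, the mitochondrial glutamate dehydrogenase, had 2939, 2598 and 2597 against 2861, 2751 and 2596. Usp24, a ubiquitin protease, had 4386, 4784 and 4416 against 4820, 4441 and 4432; for these 3 genes the stages overlapped.

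**Figure D1:**
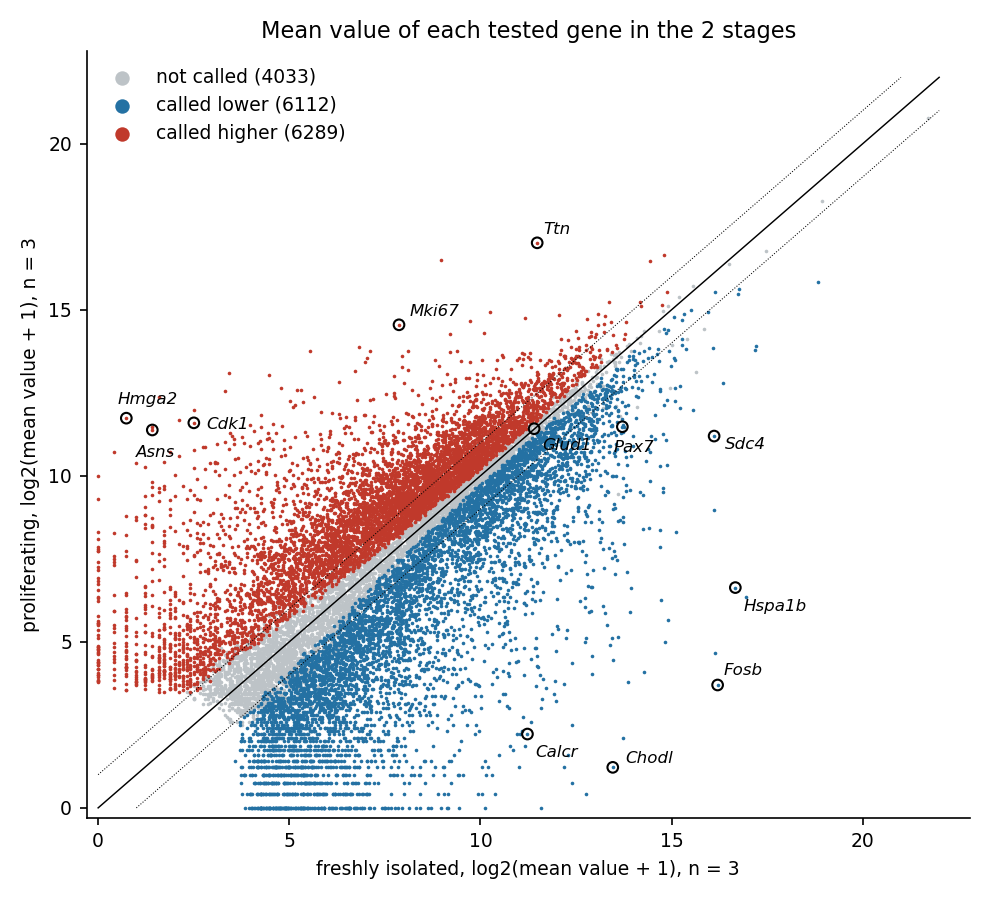
Mean scaled read count of each of the 16434 genes in freshly isolated (horizontal axis) and proliferating cells (vertical axis), both as log2(mean + 1) with 3 libraries a stage. Red points are called higher (6289), blue points lower (6112) and grey points neither; the solid line marks equality and the dotted lines a 2-fold difference.

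Immediate early genes fell almost as a whole. Of 32 tested, 30 were lower in proliferating cells, 1 was higher and 1 was not called, with a median log2 change of -4.71 against 0.04 over all genes. Together they held 1.92%, 2.18% and 2.14% of the scaled reads of the freshly isolated libraries and 0.113%, 0.122% and 0.118% of the proliferating ones. On the list all 6 FOS and JUN genes, all 3 EGR genes and all 3 NR4A genes, which encode fast transcription factors, fell. The list leaves out Fosl1 and Egr4, so it does not describe these families in full. The sizes were not alike within the AP-1 family. Jun itself kept a sizeable level, with 40351, 32460 and 32732 and then 4574, 5168 and 4763 (log2 change -2.86, SE 0.10, adjusted p = 6.96e-09). Its partner Fos had 32725, 27388 and 27292 and then 34, 34 and 24 (-9.86, SE 0.15, adjusted p = 8.33e-11). Egr1, a zinc finger factor induced by serum, had 70758, 70293 and 72952 and then 546, 491 and 463. The 3 genes above were higher in every freshly isolated library than in any proliferating one, with narrow spread in both stages. Myc, which drives cell growth, also fell, from 14341, 14750 and 11465 to 1368, 835 and 714 (-3.84, SE 0.23, adjusted p = 1.81e-07). The exception was Gadd45g, a stress-induced regulator of growth arrest, with 1928, 1089 and 998 and then 1941, 2542 and 2367 (0.83, SE 0.22, adjusted p = 0.0058).

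Heat shock and chaperone genes had no one direction, with 11 of 26 higher, 13 lower and a median of -0.21, and the median turned to 0.10 when libraries were scaled to equal totals. A group of 11 cytosolic stress chaperones was lower in proliferating cells throughout (9 to 11 over the alternative settings), but it was put together with the values known. It leaves out 6 members of the list that belong to neither the secretory pathway nor mitochondria, of which 4 rose (Hspa4, Hspa4l, Hspb8 and Hsf2) and 2 were not called (Hsp90ab1 and Hsf1). Hsf1 was called higher under equal totals (0.53, adjusted p = 0.00517) and without freshly isolated replicate 2 (0.30, adjusted p = 0.028), and Hsp90ab1 lower under upper quartile scaling (-0.35, adjusted p = 0.0366). Hspa4, of the same Hsp110 family as Hsph1, rose by 1.53 (SE 0.09, adjusted p = 1.63e-07), and Hsp90ab1, the abundant constitutive Hsp90, had 112926, 87966 and 79960 against 84777, 88426 and 81122. Hsph1, the large partner of Hsp70, had 87703, 85886 and 77810 and then 6722, 7346 and 7040 (-3.57, SE 0.09, adjusted p = 6.75e-10). Dnajb1, an Hsp40 that works with Hsp70, had 14225, 15108 and 13483 and then 710, 787 and 724. The constitutive Hspa8 (-0.29, SE 0.11, adjusted p = 0.0332) and Hsp90aa1 (-0.28, SE 0.12, adjusted p = 0.045) fell least. Under equal totals both turned, to 0.01 and 0.02, and neither was called without freshly isolated replicate 2 (adjusted p = 0.125 and 0.154) or without proliferating replicate 3 (0.124 and 0.16); Hsp90aa1 was also lost without replicate 1 of either stage (0.0637 and 0.0833). Hspa1a and Hspa1b, which fell most, are nearly identical copies whose reads the counting may divide between them.

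In the secretory pathway 5 of 6 chaperones rose (4 under upper quartile scaling). Pdia4, a disulfide isomerase of the endoplasmic reticulum, had 1148, 738 and 970 and then 3355, 3799 and 3550 (1.93, SE 0.14, adjusted p = 8.77e-07). The exception was Hspa5, the Hsp70 of the same compartment, which fell from 78399, 65504 and 62643 to 13710, 15088 and 15464 (-2.22, SE 0.11, adjusted p = 5.90e-08). Of 3 mitochondrial chaperones 2 rose and 1 fell: Hspa9, the Hsp70 there, rose by 1.46 (SE 0.10, adjusted p = 5.28e-07), and Hspe1, the small partner of the chaperonin Hspd1, went from 2046, 2519 and 2233 to 1779, 1523 and 1607 (-0.47, SE 0.10, adjusted p = 0.00212; not called under equal totals, at -0.16, adjusted p = 0.372). Hspb8, a small heat shock protein that works with Bag3 in clearing misfolded proteins, rose, with 296, 294 and 199 and then 1836, 5236 and 4319; its partner Bag3 had 28420, 29889 and 26071 and then 2318, 2548 and 2426.

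NF-kB targets and cytokines were lower in 18 of 22 cases, higher in 3 and not called in 1 (median -4.82). Nfkb1, a subunit of NF-kB, had 29845, 30916 and 28264 and then 2199, 2142 and 2115 (-3.78, SE 0.08, adjusted p = 3.04e-10). Its inhibitor Nfkbia changed by -4.97 (SE 0.13, adjusted p = 7.51e-10). The neutrophil chemokine Cxcl1 had 3745, 5850 and 6682 and then 3, 8 and 3. The risers were Csf1, Cxcl12 and Il1b. Csf1, the growth factor of macrophages, had 712, 743 and 559 and then 17205, 12491 and 12026 (4.36, SE 0.17, adjusted p = 1.11e-08). Cxcl12, the ligand of Cxcr4, had 359, 469 and 481 and then 4514, 2901 and 2914 (2.96, SE 0.21, adjusted p = 5.48e-07). Il1b, an inflammatory cytokine, was low in both stages, at 0, 4 and 0 and then 19, 51 and 44. Leukocytes could carry such genes, and 11 of their markers summed to 812, 859 and 862 and then 90, 93 and 70. Of these markers 3 had values high enough to be tested, and all 3 fell; Cd68, of macrophages, had 549, 629 and 621 and then 67, 66 and 50, and Cd79a, of B cells, had 150, 163 and 165 and then 3, 4 and 3. Ptprc, the common leukocyte antigen, was at 0, 0 and 14 and then 0, 0 and 1, and Tyrobp, Cd52, C1qa and Lyz2 were at or near 0 in both stages. The part of leukocytes in these falls was not tested.

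**Figure D2:**
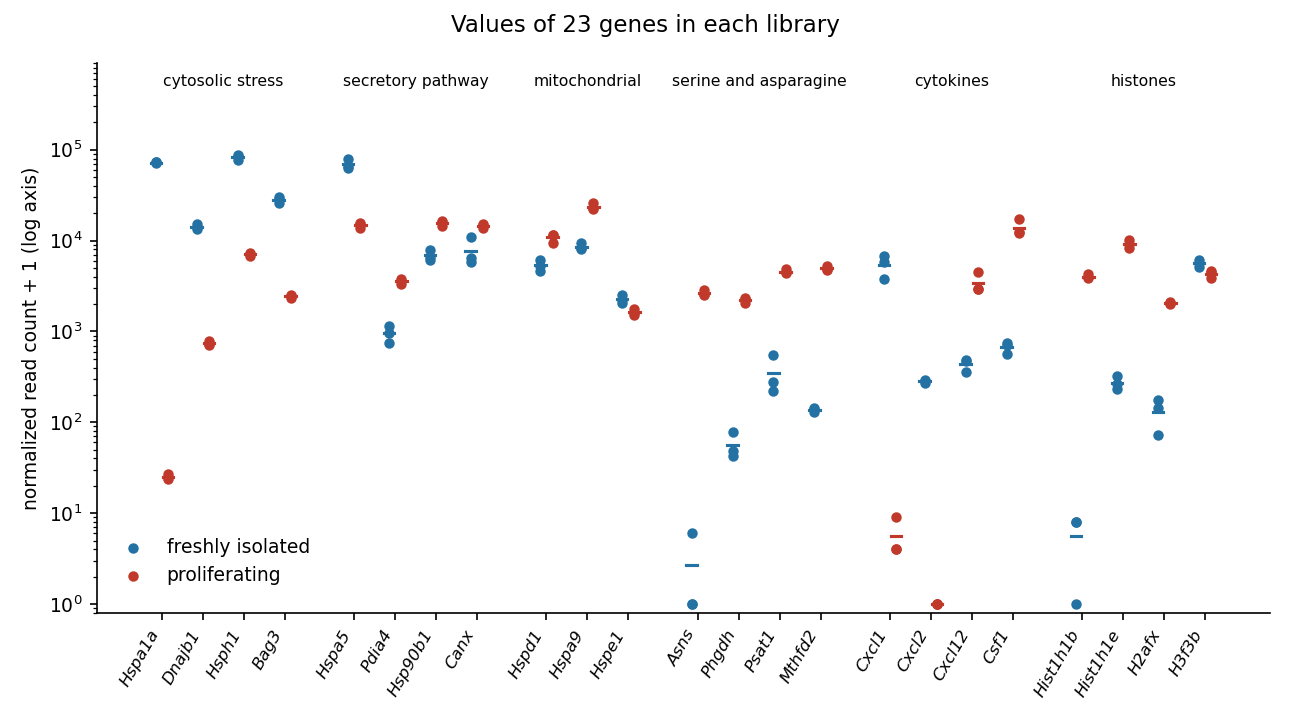
Scaled read count plus 1, on a log axis, of 23 genes in each library, grouped by role on the horizontal axis; blue points are the 3 freshly isolated and red points the 3 proliferating libraries, and the short line is their mean. The cytosolic stress genes lie higher in blue, Pdia4, Hspa9 and Csf1 higher in red, and Hspa5 lies with the stress genes.

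Clock genes and nutrient-restraint genes were also higher in freshly isolated cells. Of 19 clock genes 15 fell, 1 rose and 3 were not called (median -3.36). Per1, a repressor of the clock, had 9606, 8146 and 9828 and then 257, 302 and 276 (-5.04, SE 0.11, adjusted p = 3.85e-10). The core activators behaved differently: Arntl had 209, 450 and 375 against 370, 308 and 387, with overlapping stages, and Clock had 2227, 3952 and 3500 against 4046, 4509 and 4074 (0.42, SE 0.18, adjusted p = 0.0502). Clock was called higher under 8 of the alternative settings, among them the fits without freshly isolated replicate 2 (0.59, adjusted p = 0.0106) and without freshly isolated replicate 3 (0.50, adjusted p = 0.0488). Bhlhe41 rose by 1.68 (SE 0.11, adjusted p = 2.92e-07) while its close relative Bhlhe40, also a clock repressor, fell by 5.75 (SE 0.14, adjusted p = 6.54e-10). The time of day of collection is not given in the labels, so it cannot be told apart from the stage. Of 19 FoxO targets and nutrient-restraint genes 16 fell and 2 rose (median -1.76): Irs2, an insulin receptor adaptor, had 14210, 13920 and 12430 and then 416, 458 and 411, and Txnip, which limits glucose uptake, had 3375, 3462 and 3237 and then 7, 19 and 8.

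**Figure D3:**
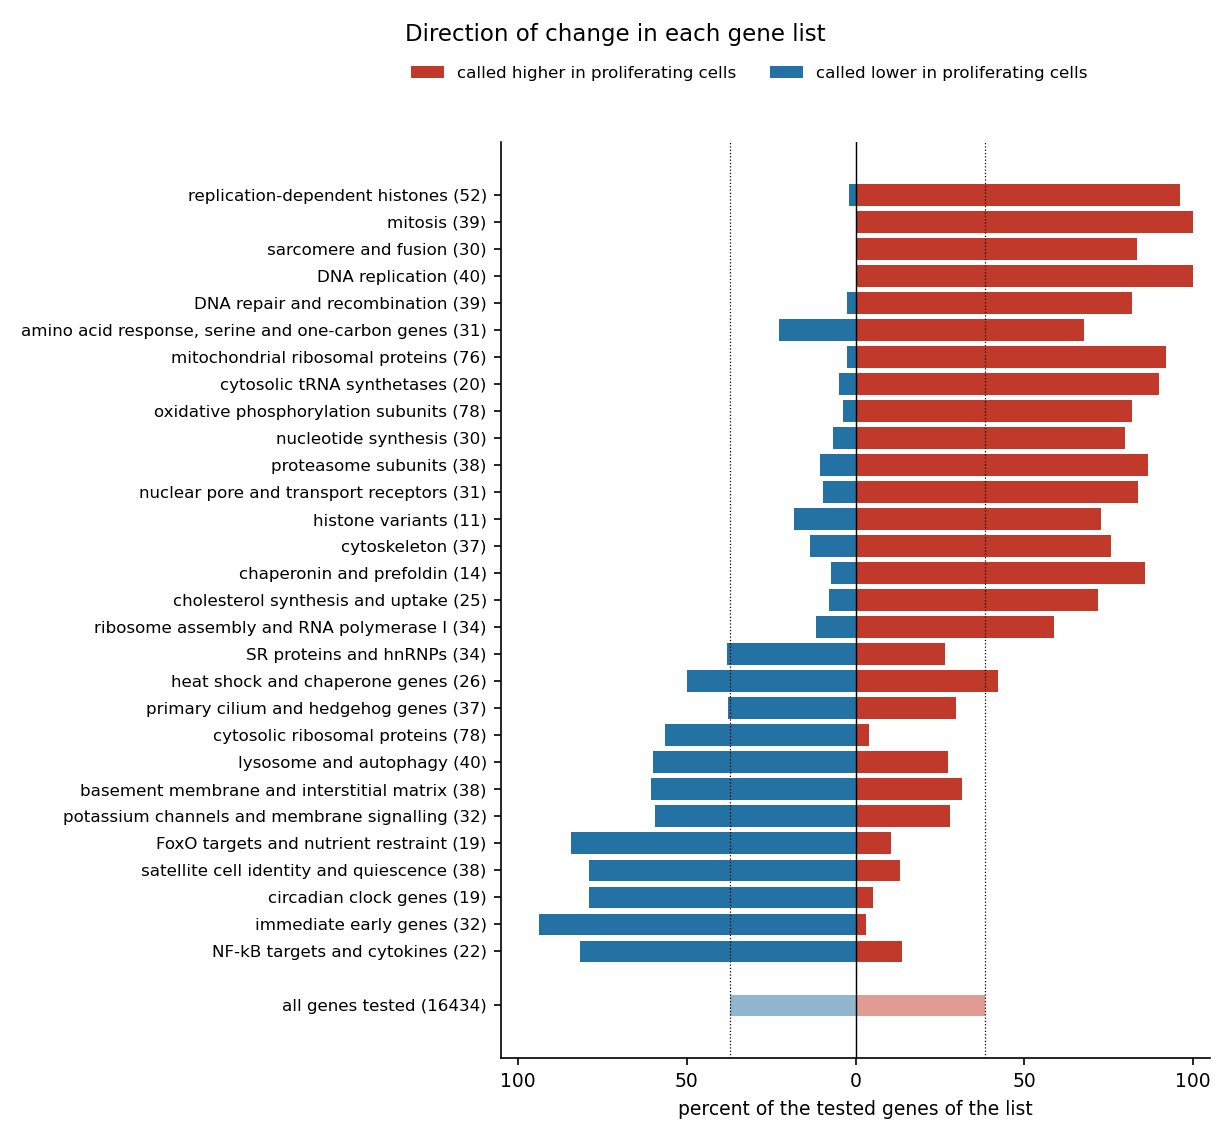
Percent of the tested genes of each list called higher (red, right) or lower (blue, left) in proliferating cells, by limma at an adjusted p below 0.05; numbers tested stand in parentheses, and the dotted lines mark the 38.3% and 37.2% of all genes. Mitosis (39 of 39) and DNA replication (40 of 40) lie wholly on the higher side, and immediate early genes (30 of 32 lower) lie almost wholly on the other.

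Genes of satellite cell identity and quiescence were lower in 30 of 38 cases, higher in 5 and not called in 3 (median -2.33); the list was chosen with earlier results of these data known. Tgfbr3, the TGF-beta co-receptor betaglycan (chromosome 5, 107106570 to 107289629), had 32449, 29101 and 31356 and then 63, 56 and 30 (-9.32, SE 0.26, adjusted p = 1.44e-09). Among adhesion molecules Vcam1 fell, with 13053, 14393 and 16393 and then 1230, 1449 and 1194 (-3.50, SE 0.11, adjusted p = 2.64e-09). Ncam1, another surface protein of the lineage, had 12611, 12112 and 13188 against 11262, 14692 and 14981 and was not called (0.10, SE 0.12, adjusted p = 0.459). N-cadherin (Cdh2), which joins satellite cells to the fibre, went the other way, with 142, 218 and 283 and then 7299, 9320 and 7884 (5.29, SE 0.21, adjusted p = 1.12e-08). Of these 3 adhesion genes 1 fell, 1 rose and 1 was not called. The syndecans, heparan sulfate proteoglycans that bind growth factors, exchanged members: Sdc4 had 87979, 65072 and 59578 and then 2651, 2303 and 2083 (-4.90, SE 0.15, adjusted p = 2.17e-09). Sdc3 had 987, 737 and 792 and then 5725, 5017 and 5647 (2.71, SE 0.14, adjusted p = 5.99e-08). Sdc1 rose by 2.08 (SE 0.13, adjusted p = 3.12e-07), so of these 3 syndecans 1 fell and 2 rose.

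The extracellular matrix showed the same kind of exchange. Of 38 basement membrane and interstitial matrix genes 23 fell, 12 rose and 3 were not called (median -1.32), and among 13 basement membrane genes 8 fell and 3 rose. Lama2, the laminin chain of muscle basement membrane, had 13936, 17511 and 17197 and then 1754, 2144 and 1864 (-3.07, SE 0.11, adjusted p = 7.23e-09). Dag1, dystroglycan, its receptor on muscle cells, had 31638, 25748 and 33544 and then 3182, 6711 and 4930. Fibronectin (Fn1), typical of a provisional matrix, had 811, 713 and 952 and then 8262, 7592 and 7740 (3.26, SE 0.12, adjusted p = 7.80e-09). Lama2 and Dag1 were lower and Fn1 higher in every proliferating library. Outside the lists, Hmcn2, a giant matrix protein named hemicentin, was among the largest falls, with 155528, 101991 and 119091 and then 109, 73 and 61 (-10.60, SE 0.21, adjusted p = 2.06e-10). Tnxb, tenascin X, had 24577, 18478 and 16419 and then 15, 14 and 19. Fibroblasts of muscle also make such genes, and of 8 tested markers of such cells 5 fell, 1 rose and 2 were not called. Among the falls Dcn had 405, 840 and 1006 and then 2, 1 and 0, and Dpt had 2449, 3554 and 3249 and then 0 in all 3. Both markers were at or near 0 in all proliferating libraries. Pdgfra, which defines the fibro-adipogenic cells of muscle, was near 0 in the freshly isolated libraries, at 4, 5 and 9, and at 19, 13 and 22 in proliferating cells. The part of such cells in the fall of these matrix genes was not tested.

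Of 32 genes of potassium channels and membrane signalling 19 fell and 9 rose (median -1.52). Besides potassium channels and receptors this list holds Rgs genes, which regulate G proteins, and other channels such as Piezo1. Kcnma1, the large calcium-activated potassium channel, had 482, 498 and 522 and then 19, 17 and 17 (-4.75, SE 0.17, adjusted p = 7.31e-09). S1pr3, a sphingosine-1-phosphate receptor, had 3891, 3925 and 4351 and then 2, 15 and 8. Kcnn4, a calcium-activated channel of dividing cells, was at 0, 0 and 5 and then 415, 269 and 385. Of 37 genes of the primary cilium, the antenna that quiescent cells carry and that reads Hedgehog signals, 14 fell and 11 rose (median -0.24, and 0.06 with libraries scaled to equal totals), so the list as a whole had no one direction. Its Hedgehog transcription factors divided: Gli1 fell by 3.46 (SE 0.23, adjusted p = 4.51e-07) and Gli2 by 3.85 (SE 0.20, adjusted p = 8.08e-08). Gli3, mostly a repressor, rose from 349, 538 and 570 to 2011, 1917 and 1762 (1.99, SE 0.18, adjusted p = 3.82e-06). Arl13b, a small GTPase of the ciliary membrane, had 3085, 2933 and 2873 and then 389, 313 and 320.

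The cell cycle rose as a whole. All 40 DNA replication genes and all 39 mitosis genes were higher in proliferating cells, with medians of 2.92 and 6.04; under upper quartile scaling 39 of the 40 replication genes were called. Mitosis genes held 0.0224%, 0.025% and 0.0256% of freshly isolated reads and 0.753%, 0.787% and 0.732% of proliferating reads, and replication genes 0.0457%, 0.0515% and 0.0524% against 0.47%, 0.466% and 0.441%. The replication genes started from a higher share and had the smaller median change. Top2a, the topoisomerase that untangles replicated chromosomes, had 209, 59 and 70 and then 14349, 15986 and 15054 (7.29, SE 0.39, adjusted p = 8.30e-08). Pcna, the sliding clamp, had the modest change of 0.84 (SE 0.14, adjusted p = 0.000354), with 1181, 1721 and 1440 and then 2606, 2695 and 2409. All 6 MCM helicase genes rose, with log2 changes of 2.69 to 4.85; the highest, Mcm2, was 5.46 without freshly isolated replicate 1. Cyclin-dependent kinase 1 (Cdk1, chromosome 10, 69335146 to 69352938), which drives entry into mitosis, had 0, 1 and 13 and then 2910, 3351 and 3016. All 6 condensin genes on the mitosis list, which compact chromosomes, rose, from 2.24 to 6.66. The list does not hold every condensin subunit. Upstream, Cdk4 had 647, 575 and 573 and then 3484, 3480 and 3346 (2.52, SE 0.09, adjusted p = 7.00e-09). Its partner Ccnd2 had 74, 40 and 61 and then 1861, 2005 and 1392 (4.91, SE 0.22, adjusted p = 3.04e-08).

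Promoters of cell cycle genes are known to carry 2 short sequences, and these were looked for from 250 bases before to 50 after each gene's start in RefSeq (GRCm38.p6), on both strands. Windows were matched by Ensembl identifier, or by symbol where that gave none, on the same chromosome and strand. This gave a window for 10650 of the 16434 genes (64.8%). The share over all tested genes is thus void as a check of that whole set and describes the matched promoters alone. A motif match is not a site of binding. The cell cycle homology region (CHR, TTTGAA) was found in 22 of 31 matched mitosis promoters (71%), against 11.3% of all matched tested genes and 17.9% of all 32817 promoters in the table. For mitosis 79.5% of the genes had a window, which leaves that comparison void for the whole list too. The next promoters show the CHR close to the start of 4 mitosis genes. They are the 100 bases before the start, 5′ to 3′ on the gene's strand, with each copy in capitals, TTCAAA being the same motif on the other strand: Cdk1 at chr10:69352913-69353012 (minus strand), Ncapg at chr5:45669825-45669924 (plus strand), Cdc20 at chr4:118437344-118437443 (minus strand) and Kif11 at chr19:37376282-37376381 (plus strand).
Cdk1: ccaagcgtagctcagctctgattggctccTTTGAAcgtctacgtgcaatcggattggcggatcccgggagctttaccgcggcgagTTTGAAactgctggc
Ncapg: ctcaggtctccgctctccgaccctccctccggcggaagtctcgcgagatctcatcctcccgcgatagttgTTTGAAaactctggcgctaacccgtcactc
Cdc20: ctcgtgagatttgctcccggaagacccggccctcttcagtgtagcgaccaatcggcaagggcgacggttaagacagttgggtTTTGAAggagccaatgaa
Kif11: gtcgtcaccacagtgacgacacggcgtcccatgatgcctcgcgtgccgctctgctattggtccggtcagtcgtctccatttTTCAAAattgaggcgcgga
These promoters, like those printed further below, were picked from list genes called higher, so the rise of their genes was fixed by that choice. Mki67, picked in the same way, has its CHR 98 bases before the start and is not printed. Ncapg, a condensin subunit, had 28, 18 and 9 and then 1779, 1876 and 1706. Cdc20, which activates the anaphase-promoting complex, had 24, 37 and 23 and then 1976, 2296 and 2153 (6.24, SE 0.21, adjusted p = 4.48e-09). Kif11, the motor that separates spindle poles, had 179, 71 and 73 and then 4725, 5269 and 4801 (5.64, SE 0.31, adjusted p = 1.14e-07).

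The E2F sequence (TTTNGCGC) was found in 9 of 32 matched replication promoters (28.1%, with 80% of the list matched), against 2.39% of matched tested genes and 1.38% of all promoters in the table. The 3 shown next carry it within 100 bases of the start, in capitals, GCGCGAAA being the other strand: Mcm6 at chr1:128359706-128359805 (minus strand), Rfc3 at chr5:151651209-151651308 (minus strand) and Orc1 at chr4:108579354-108579453 (plus strand).
Mcm6: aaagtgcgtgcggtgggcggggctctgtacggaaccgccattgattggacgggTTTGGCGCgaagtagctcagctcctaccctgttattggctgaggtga
Rfc3: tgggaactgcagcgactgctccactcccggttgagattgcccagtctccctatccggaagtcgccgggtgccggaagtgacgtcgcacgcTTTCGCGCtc
Orc1: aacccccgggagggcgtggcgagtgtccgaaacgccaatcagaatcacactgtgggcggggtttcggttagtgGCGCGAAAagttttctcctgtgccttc
Mcm6, a helicase subunit, had 569, 333 and 379 and then 5333, 5422 and 4887 (3.64, SE 0.23, adjusted p = 2.53e-07). Rfc3, part of the clamp loader, had 68, 51 and 88 and then 611, 611 and 576 (3.13, SE 0.19, adjusted p = 1.93e-07). Orc1, the origin-binding subunit, had 33, 75 and 67 and then 379, 334 and 324 (2.63, SE 0.33, adjusted p = 3.68e-05). All 3 were above 0 before culture, unlike the near absence of Cdk1.

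Replication-dependent histones, which package newly made DNA, rose in 50 of 52 cases (median 6.68) and went from 0.00411%, 0.00543% and 0.00529% of reads to 0.286%, 0.262% and 0.249%. Every class took part: all 5 linker histones H1, 11 of 12 H2A, 12 of 13 H2B, all 9 H3 and all 13 H4 genes tested rose. Histones of a class are near-identical in sequence, so counts of single genes may share reads. Hist1h1d (chromosome 13, 23553262 to 23560686) had 7, 13 and 7 and then 6540, 5708 and 5632. The exceptions lie outside the large cluster: Hist2h2be, whose message can be polyadenylated, fell from 65, 52 and 56 to 15, 21 and 24, and Hist3h2a had 33, 63 and 47 against 38, 39 and 31 and was not called. Of 11 histone variants, most of them made outside replication, 8 rose and 2 fell (median 1.33). H2afz, the variant H2A.Z, had 1279, 1267 and 1056 and then 2893, 3239 and 2934 (1.33, SE 0.10, adjusted p = 7.23e-07). The falls were the H3.3 genes, H3f3a by 0.98 (SE 0.21, adjusted p = 0.00186) and H3f3b by 0.38 (SE 0.10, adjusted p = 0.00493); neither was called with libraries scaled to equal totals (adjusted p = 0.0513 and 0.612). Chromosome 13, which carries the large histone cluster, had 57.5% of its 496 tested protein-coding genes higher. The share was 39.5% to 48.5% on the other chromosomes and 43.7% over all protein-coding genes tested.

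DNA repair genes followed, with 32 of 39 higher and 1 lower (median 2.29). Brca1, of homologous recombination, had 41, 23 and 22 and then 1694, 1489 and 1555 (5.79, SE 0.26, adjusted p = 2.82e-08). The single fall was Fancc, of the Fanconi core complex, with 1351, 1323 and 1253 and then 304, 323 and 286 (-2.10, SE 0.11, adjusted p = 7.60e-08). Nucleotide synthesis rose in 24 of 30 cases (median 1.61). Tyms, which makes thymidylate, had 111, 43 and 51 and then 1280, 1179 and 1141 (4.24, SE 0.31, adjusted p = 7.09e-07). Uck2, of the uridine salvage route, fell from 8395, 8384 and 7253 to 2213, 1981 and 1849 (-1.99, SE 0.10, adjusted p = 4.18e-08), as did Impdh2 by 0.57 (SE 0.09, adjusted p = 0.00023), an enzyme of guanine nucleotide synthesis.

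**Figure D4:**
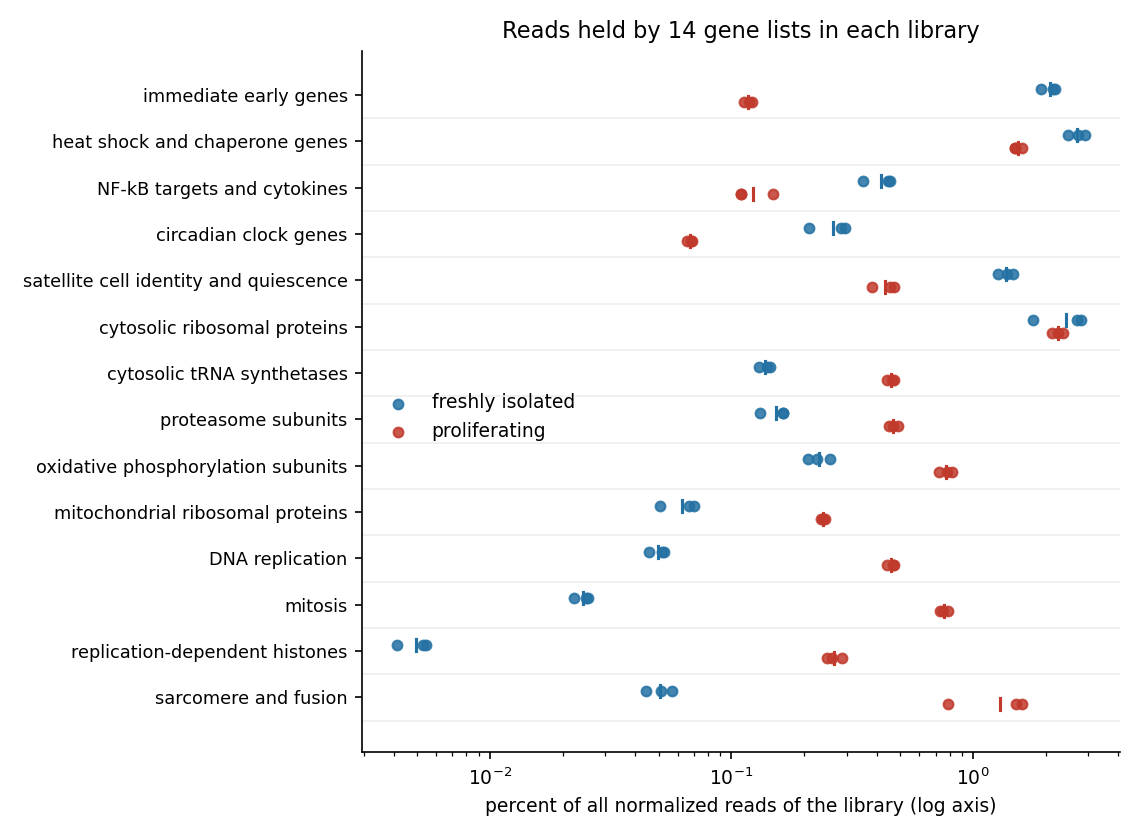
Percent of all scaled reads held by 14 gene lists in each library, on a log axis; each point is a library, blue for freshly isolated and red for proliferating cells, and the short line is the mean of 3. Histones lie at 0.00411% to 0.00543% against 0.249% to 0.286%, and cytosolic ribosomal proteins overlap between the stages.

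Genes for making amino acids and charging transfer RNA rose. In the amino acid response, serine and one-carbon list 21 of 31 rose, 7 fell and 3 were not called (median 2.06), and all 7 genes that make serine, glycine and one-carbon units rose (2.11 to 6.96). Phgdh, the first enzyme of serine synthesis, had 78, 42 and 47 and then 2287, 2339 and 2030 (5.34, SE 0.21, adjusted p = 1.07e-08). Mthfd2, the mitochondrial folate enzyme (chromosome 6, 83305691 to 83325908), had 139, 143 and 130 and then 4858, 5185 and 4802 (5.16, SE 0.09, adjusted p = 1.37e-10). Atf4, the transcription factor known to drive this programme, was lower at the RNA level, with 12600, 11710 and 10593 and then 8854, 8322 and 7824 (-0.48, SE 0.10, adjusted p = 0.00179; not called under equal totals, at -0.18, adjusted p = 0.162). Cbs, of the route from homocysteine to cysteine, fell from 736, 761 and 834 to 7, 4 and 9. Of 20 cytosolic tRNA synthetases 18 rose and 1 fell (median 1.70). Gars, which charges glycine, had 1109, 907 and 847 and then 8333, 9012 and 8208 (3.16, SE 0.11, adjusted p = 5.72e-09).

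The amino acid response element (TGATGNAA), which ATF4 is known to bind, was found in 7 of 25 matched promoters of the amino acid list (28%, with 80.6% matched), against 2.14% of matched tested genes and 3.97% of all promoters. In the tRNA synthetases it was in 5 of 12 (41.7%), but only 60% of that list had a window, so the share is void for the list. The sequences next are printed because their genes include the largest rise of the list; the motif is in capitals, a form starting TT being the other strand: Asns at chr6:7693210-7693309 (minus strand), Slc7a11 at chr3:50443614-50443713 (minus strand), Gars at chr6:55037901-55038000 (plus strand) and Tars at chr15:11399659-11399758 (minus strand).
Asns: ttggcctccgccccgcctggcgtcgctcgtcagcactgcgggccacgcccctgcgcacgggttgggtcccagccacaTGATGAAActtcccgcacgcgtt
Slc7a11: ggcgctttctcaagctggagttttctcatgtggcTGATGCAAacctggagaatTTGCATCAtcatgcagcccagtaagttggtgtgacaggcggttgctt
Gars: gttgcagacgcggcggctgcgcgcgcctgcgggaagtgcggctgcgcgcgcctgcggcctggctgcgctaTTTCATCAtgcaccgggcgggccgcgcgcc
Tars: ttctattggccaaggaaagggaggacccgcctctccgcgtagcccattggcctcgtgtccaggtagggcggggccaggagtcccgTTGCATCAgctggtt
Asns, asparagine synthetase, was at 0, 5 and 0 and then at 2523, 2866 and 2603. Slc7a11, the cystine importer, with 2 copies, had 26, 25 and 17 and then 715, 450 and 427 (4.47, SE 0.26, adjusted p = 1.47e-07). Tars, which charges threonine, had 1259, 1086 and 1036 and then 3205, 3215 and 2821 (1.45, SE 0.10, adjusted p = 4.98e-07), so promoters with the same element went with rises of quite different size.

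Ribosomes behaved differently by compartment. Of 78 cytosolic ribosomal protein genes 44 were lower, 3 higher and 31 not called (median -0.44), against 15 lower and 6 higher when libraries were scaled to equal totals. Their share of reads overlapped between the stages, at 1.78%, 2.81% and 2.7% and then 2.35%, 2.26% and 2.12%, the lowest value being freshly isolated replicate 1. Rps6, a protein of the small subunit, had 10408, 9688 and 8186 and then 5214, 4841 and 4127 (adjusted p = 3.26e-05). Rpl41, a very small protein of the large subunit, rose from 2296, 3012 and 3167 to 5888, 5796 and 5267 (1.01, SE 0.16, adjusted p = 0.000211). Many of these genes have processed pseudogenes that may share their reads. In contrast 70 of 76 mitochondrial ribosomal protein genes rose and 2 fell (median 1.95). Of 34 ribosome assembly and RNA polymerase I genes 20 rose and 4 fell (median 0.44): Npm1, a nucleolar chaperone, had 12373, 10587 and 10119 and then 28059, 25535 and 22748 (1.21, SE 0.12, adjusted p = 7.55e-06). Nucleolin (Ncl) had 80027, 35257 and 30411 against 64644, 50553 and 46301, with overlap, and was not called (0.27, SE 0.31, adjusted p = 0.436); without freshly isolated replicate 1, its highest library, it was called higher (0.70, adjusted p = 0.00132).

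Nuclear genes of the respiratory chain rose in 64 of 78 cases, with 3 lower (median 1.69), and went from 0.207%, 0.227% and 0.255% of reads to 0.726%, 0.82% and 0.779%. By complex, 29 of 37 genes of complex I rose, 4 of 4 of complex II, 8 of 9 of complex III, 10 of 13 of complex IV and 13 of 15 of the ATP synthase. Sdhb, of succinate dehydrogenase, had 285, 305 and 320 and then 1845, 2082 and 1958 (2.69, SE 0.11, adjusted p = 1.53e-08). Atp5b, the catalytic subunit of ATP synthase, had 9249, 9225 and 10754 and then 26150, 31327 and 28895 (1.56, SE 0.11, adjusted p = 7.63e-07). Cox7a1, the muscle and heart form of a cytochrome oxidase subunit, fell from 246, 176 and 215 to 8, 13 and 10, while the widely expressed Cox7a2 rose from 78, 200 and 238 to 532, 695 and 639. No value above 0 was listed for the genes that mitochondria encode themselves, so the chain is seen here through its nuclear genes.

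Protein quality control and transport followed the same way. Of 38 proteasome genes 33 rose and 4 fell (median 1.60). All 31 core and cap subunits rose (28 to 31 over the alternatives), Psmc1, an ATPase of the cap, from 442, 389 and 330 to 2380, 2802 and 2494 (2.73, SE 0.12, adjusted p = 2.59e-08). The 4 falls were among 5 immunoproteasome genes, whose products are induced by interferon, and Psmb9 was the one of them that most alternatives no longer called: Psmb8 had 74, 60 and 50 and then 7, 17 and 10, and Psme1 had 1218, 1034 and 969 and then 490, 555 and 551 (-1.01, SE 0.11, adjusted p = 1.37e-05). Chaperonin and prefoldin genes, which fold actin and tubulin, rose in 12 of 14 cases (median 1.20). Nuclear pore and transport genes rose in 26 of 31 (median 1.43). Xpo1, the export receptor, had 1325, 1384 and 1409 and then 11421, 11980 and 10828 (3.05, SE 0.09, adjusted p = 2.05e-09). SR proteins and hnRNPs, which bind messenger RNA in splicing, were mixed, with 9 higher and 13 lower of 34 (median -0.13, and 0.17 under equal totals). Clk1, a kinase that phosphorylates SR proteins, had 10693, 12511 and 11603 and then 1678, 1678 and 1632 (-2.80, SE 0.08, adjusted p = 1.63e-09). Srsf1 rose by 1.05 (SE 0.09, adjusted p = 2.60e-06) and Srsf5 went from 10144, 9162 and 8651 to 3685, 3732 and 3193 (adjusted p = 4.10e-07).

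Cholesterol genes rose in 18 of 25 cases and fell in 2 (median 1.06). Fdft1, squalene synthase, had 92, 111 and 211 and then 910, 1329 and 1220 (3.13, SE 0.27, adjusted p = 2.38e-06). Lysosome and autophagy genes fell in 24 of 40 cases and rose in 11 (median -0.58), with 15 falls under equal totals. Among the falls Ulk1, the kinase that starts autophagy, had 4580, 4861 and 5057 and then 716, 739 and 756 (-2.71, SE 0.09, adjusted p = 4.15e-09). Sqstm1, the cargo receptor p62, had 38174, 34797 and 30784 and then 6610, 6309 and 6359 (-2.42, SE 0.10, adjusted p = 1.65e-08). Lysosomal proteins went both ways: Lamp1, of the membrane, rose by 1.34 (SE 0.10, adjusted p = 7.02e-07), and the protease Ctsk had 235, 223 and 208 and then 2, 3 and 1.

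Among cytoskeleton genes 28 of 37 rose and 5 fell (median 1.27), and their share of reads went from 1.62%, 1.8% and 1.82% to 2.96%, 3.38% and 3.17%. Tubb5, a beta tubulin, had 4636, 4061 and 4167 and then 28579, 30965 and 29387 (2.79, SE 0.13, adjusted p = 3.08e-08). Stmn1, which destabilises microtubules, had 59, 59 and 91 and then 1424, 1426 and 1313 (4.33, SE 0.19, adjusted p = 2.65e-08). Against this direction Flnc, the muscle filamin, which cross-links actin, had 165110, 141244 and 142257 and then 9743, 18215 and 14537 (-3.44, SE 0.20, adjusted p = 1.56e-07). Acta2, smooth muscle actin, which pericytes also make, had 3144, 1567 and 2029 and then 6866, 18161 and 14036. Of 8 tested markers of pericytes or smooth muscle, Acta2 among them, 2 rose, 3 fell and 3 were not called (median -0.62). The part of such cells was not tested.

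Sarcomere and fusion genes rose before differentiation medium was given. Of 30 tested 25 rose, 0 fell by limma and 5 were not called (median 4.05); 1 was called lower under upper quartile scaling and without proliferating replicate 2. Proliferating replicate 1 was the lowest of its stage for all 30, and the median was 4.82 without it; the share of reads was 0.788% there and 1.51% and 1.59% in the other proliferating libraries, against 0.0443% to 0.0565% before culture. Titin (Ttn), the spring of the sarcomere, had 4656, 1793 and 2147 and then 88632, 140867 and 168106 (5.61, SE 0.34, adjusted p = 1.87e-07). Myog, the factor that starts differentiation, had 1257, 62 and 218 and then 2179, 9530 and 8749, with the highest freshly isolated value and the lowest proliferating value both in replicate 1. Chrna1, the alpha subunit of the acetylcholine receptor, was even across libraries, with 617, 563 and 588 and then 17757, 20586 and 20665 (5.06, SE 0.10, adjusted p = 1.88e-10). The E-box CAGCTG, a sequence that MyoD-family factors bind, was in 9 of 24 matched promoters of this list (37.5%, with 80% matched), against 15.5% of matched tested genes and 16.3% of all promoters; in a window of 150 bases the share was 16.7%. The promoters printed next show the motif close to the start of a myosin and a receptor gene, printed with the E-box in capitals: Mylpf at chr7:127211508-127211607 (plus strand) and Chrna1 at chr2:73580339-73580438 (minus strand), the latter with 2 copies.
Mylpf: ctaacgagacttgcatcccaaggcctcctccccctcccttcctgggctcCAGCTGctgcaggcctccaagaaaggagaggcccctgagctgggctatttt
Chrna1: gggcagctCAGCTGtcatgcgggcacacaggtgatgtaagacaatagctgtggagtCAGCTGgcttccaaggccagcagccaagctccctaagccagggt
Mylpf, a fast myosin light chain, had 57, 44 and 2 and then 698, 3469 and 2725, with the proliferating replicate 1 again the lowest.

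Of 60 pairs of related genes 32 had both members called in the same direction, 13 in opposite directions, 12 had one or neither called and 3 were not tested. Some genes stand in more than 1 pair, and Itgb1 with Itga6 joins a beta and an alpha integrin subunit. Of the 115 tested genes in these pairs 52.2% were higher and 38.3% lower, against 38.3% and 37.2% of all genes. The share of such patterns among unrelated genes was not computed, so these counts describe the chosen pairs alone. Among the 13, Egfr, the EGF receptor, had 6031, 7073 and 7754 and then 517, 487 and 378 (-3.92, SE 0.14, adjusted p = 6.02e-09), while its relative Erbb3 had 81, 75 and 87 and then 465, 1355 and 1104 (3.44, SE 0.31, adjusted p = 3.90e-06). Polycomb enzymes crossed, with Ezh1 at 1307, 1400 and 1670 and then 350, 357 and 388, and Ezh2 at 1059, 1348 and 1319 and then 2670, 2722 and 2430. DNA methyltransferases crossed as well: Dnmt1, which copies methylation to new DNA, rose by 2.82 (SE 0.19, adjusted p = 3.96e-07), and Dnmt3a, which sets it anew, fell by 1.78 (SE 0.16, adjusted p = 3.73e-06). Lamin B1 (Lmnb1) rose by 2.67 (SE 0.23, adjusted p = 2.62e-06) and lamin A/C (Lmna) fell by 0.44 (SE 0.13, adjusted p = 0.00896); the fall of Lmna and that of Actn4 were not called under equal totals (adjusted p = 0.307 and 0.518). Among integrin subunits Itga7 rose by 0.53 (SE 0.17, adjusted p = 0.0153), which was not called without any 1 of freshly isolated replicates 2 and 3 or proliferating replicates 2 and 3 (adjusted p 0.0504 to 0.0628), and Itga5, of the fibronectin receptor, fell by 0.81 (SE 0.08, adjusted p = 7.58e-06).

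**Figure D5:**
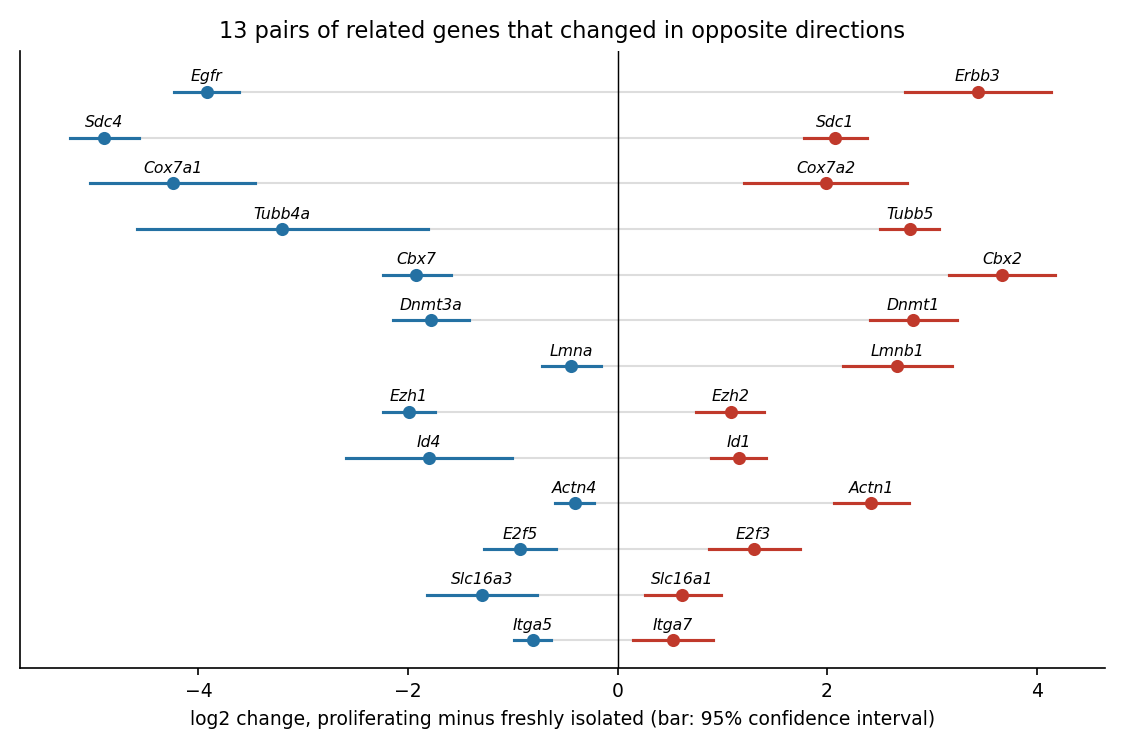
Log2 change, proliferating minus freshly isolated, of the 13 paralogue pairs whose members were called in opposite directions, with 95% confidence intervals as bars; a grey line joins the 2 genes of a pair. Rises lie right of 0 and falls left of it.

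Some genes were listed at 0 in every library of one stage. Of the genes with a mean of 100 or more in proliferating cells, 14 (12 protein coding) were at 0 in all 3 freshly isolated libraries. Igfbp2, which binds insulin-like growth factors, had 277, 253 and 293 in proliferating cells. In the other direction 31 genes (20 protein coding) were at 0 in all proliferating libraries. Casp4, an inflammatory caspase, had 549, 497 and 638, and Optc, opticin, a small leucine-rich matrix protein, had 532, 607 and 577. Scn7a, a sodium channel of non-neuronal cells, had 959, 1162 and 1208. By class, protein-coding genes were called higher in 43.7% of 13380 cases and lower in 35.2% (median 0.21), while long non-coding RNAs were higher in 12.1% of 1398 and lower in 51.6% (median -1.09, which was -0.39 with no filter on low values and -1.53 with the filter at 50). Among the latter, Malat1, a nuclear RNA, had 493495, 490380 and 412320 and then 59186, 60035 and 57575 (-2.98, SE 0.15, adjusted p = 6.44e-08). Neat1, the scaffold of paraspeckles, had 176418, 154130 and 127982 and then 18182, 12756 and 15060 (-3.32, SE 0.15, adjusted p = 3.48e-08).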

How the data were processed

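RNA from purified satellite cells was depleted of ribosomal RNA and made into stranded total RNA libraries from 100 ng, per the labels' protocols. Reads were handled with STAR 2.4.0a and featureCounts 1.4.5-p1 of Subread on mm10 (GRCm38), per the submitters' processing notes; no label or header names the strand setting or the scaling tool. What was deposited is a score: counts per gene, brought to a common scale and rounded by the authors, so count models were not used.

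The comparison used 3 freshly isolated and 3 proliferating samples. Genes with 10 or more in at least 3 of these 6 libraries were tested with limma 3.58.1 (R 4.3.3) on log2(value + 1), with 1 mean per stage over all 9 libraries, a spread trend and Benjamini-Hochberg adjustment over all 16434 genes at 0.05; treat used 2-fold, and "within 2-fold" means a 95% interval inside it. Scripts were tested on simulated data. The genes tested and the lists were chosen with earlier results of these data known, so lists are described by counts and medians with no test of their own. Named genes are the 5 markers, the largest called changes of each list in the main and the other direction, the largest outside lists, the most abundant genes, opposite paralogues and the steadiest well-expressed genes; further list members, the grouping of a list by compartment or complex, and the genes at 0 in one stage were named with their values seen. Some genes that this rule names are not reported here. Positions are from GENCODE M21 and promoters from RefSeq GRCm38.p6. Same-numbered replicates did not deviate together (correlations -0.019 to 0.002), and the main fit used no pairing. Correlations over genes between such different stages cannot show whether same-numbered samples shared animals. Alternatives varied the pseudocount, filter, scaling, libraries, weights, replicate block and promoter window. Without molecular identifiers the depth covers counting error only.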

Additional observations from a re-analysis of the deposited data

Results flagged for a closer look

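The myotube libraries, which the comparison used for the spread of each gene alone, held genes of the Y chromosome that the 6 compared libraries did not. Mean values over the 3 myotube libraries were 3435 for Ddx3y, 2589 for Eif2s3y, 1612 for Uty and 1363 for Kdm5d. In the 6 freshly isolated and proliferating libraries Ddx3y was at 0 to 3. The X-linked Xist had 28464, 38044 and 38186 in freshly isolated and 12696, 10966 and 11043 in proliferating cells, and 2, 1 and 3 in myotubes. The labels give no sex. The compared stages were alike in these Y-linked genes, at 0 to 3 in every library. Xist was in both stages but was called lower in proliferating cells (log2 change -1.58). The part of the myotube libraries in the spread is bounded by the fit on the 6 compared libraries only, which called 5896 genes higher and 5841 lower.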

How the results depend on the processing

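No alternative called a gene in the direction opposite to its main call. Genes called higher ranged from 5462 (upper quartile) to 7115 (equal totals) and lower from 4532 (filter at 50) to 6933 (no filter), against 6289 and 6112. Leaving out 1 library at a time gave 5803 to 6591 higher and 5725 to 6462 lower, and leaving out replicate 1 of both stages gave 6544 and 6400. By the library factors, equal totals shifted log2 changes by 0.303, equal totals without the most abundant genes by 0.164 and upper quartile by -0.218. Genes with low values shifted by other amounts, since 1 was added after scaling: Psmb9 went from -1.09 to -0.81 under equal totals. With the replicate block 6244 genes were higher and 6053 lower, and whether the numbers pair samples is not known. Of 6760 alternative values of named genes 6667 kept their call, 63 lost the call, 28 gained it and 2 turned, Hspa8 at 0.01 and Hsp90aa1 at 0.02, both under equal totals. The log2 ratio of tRNA synthetase shares was 1.65 without the most abundant gene of each stage. The median change of long non-coding RNAs was -0.39 with no filter and -1.53 with the filter at 50. In the 150-base window the CHR was in 4.18% of matched tested promoters, E2F in 1.28%, the amino acid response element in 0.948% and the E-box in 8.71% (16.7% of the sarcomere list). Depth limits low genes, most of all in freshly isolated replicate 1.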
